A study of Homo sapiens with 27 samples.

Results

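Genes of homologous recombination and of the Fanconi anaemia pathway were followed by bulk RNA sequencing in MCF10A. This is an established human line of breast epithelium that does not form tumours. The set held 34 genes, chosen by name for their known part in these pathways and with earlier results of these data known. The deposited table held 36536 genes once rows sharing a symbol were summed, unnamed rows counting under their Ensembl identifiers. All 34 were present as a single row each, and all 34 passed the filter on low counts that left 15575 genes for testing. They comprised BRCA1 and 4 partners (BARD1, BRIP1, PALB2, BRCA2), 7 genes of strand invasion and exchange (RAD51C, XRCC2, XRCC3, RAD51AP1, RAD54L, RAD54B, C1orf112) and 4 genes of DNA end resection (RBBP8, NBN, RAD50, EXO1). A helicase, a nuclease subunit and a polymerase (BLM, EME1, POLQ), 8 genes of the Fanconi core complex and its partners (FANCA, FANCB, FANCE, FANCF, FANCG, FANCL, FANCM, UBE2T) and its substrate pair (FANCD2, FANCI) were also included. The remaining members were 4 checkpoint genes (ATM, ATR, CHEK1, TOPBP1) and the mismatch recognition gene MSH6.

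Homologous recombination repairs broken DNA by copying the intact sister chromatid. Nucleases first resect the break to single strands, BRCA1, PALB2 and BRCA2 then prepare them to invade the intact copy, and helicases and nucleases resolve the joined molecules. The Fanconi core complex is a ubiquitin ligase that marks the FANCD2 and FANCI pair at crosslinked DNA, which routes the lesion to nucleases and then to recombination. Because a sister chromatid is present only after replication, these pathways act mainly in S and G2 phase, and many of their genes are transcribed in those phases. Inherited loss of BRCA1, BRCA2 or PALB2 is known for its link to breast cancer.

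All cells were first grown with 20 ng/ml epidermal growth factor (EGF), horse serum, hydrocortisone, cholera toxin and insulin, reseeded on collagen, and held for 18 h in medium without growth factors. Cells labelled T0 were untreated controls. The other cells received fresh growth factor-free medium and, at 10 ng/ml per ligand, EGF, the cytokine oncostatin M (OSM), transforming growth factor beta (TGFB) or any mixture of them. The vehicle was phosphate-buffered saline (PBS), and all treated cells were profiled 24 h later. There were 3 libraries in each of 9 groups (T0, PBS, EGF, OSM, TGFB, EGF+OSM, EGF+TGFB, OSM+TGFB and EGF+OSM+TGFB). The labels number the replicates but do not say whether they were separate cultures, so the p-values measure the spread between these libraries, which may be technical.

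The libraries held 30143162 to 52947078 counts, and the members' lowest count was 4, for EME1 in a TGFB library. Expression is given in CPM, the gene's share of the scaled library size. A gene was called changed when its p in edgeR's quasi-likelihood test, after Benjamini-Hochberg adjustment across the 15575 genes, was under 0.05. Every adjusted p below comes from that test, and log2 changes carry their standard errors. All 8 basal mammary markers were above 1 CPM in every library (keratin gene KRT5, 3313 to 9188 CPM). Of 5 general epithelial markers, CDH1 was at 143 to 676 CPM and EPCAM at 2.72 to 18.6. The keratin genes KRT8 and KRT18 were at 128 to 714 and 109 to 430 CPM, whereas the keratin gene KRT19 did not exceed 0.755 CPM. Markers of other cell types were mixed. Of 5 immune markers the leukocyte genes PTPRC and CD3E reached at most 0.225 and 0.1251 CPM, but CD68 was at 20.2 to 50.4 and CD14 at 1.70 to 79.3 CPM. Of 5 luminal hormone-responsive markers PGR reached at most 0.031 CPM, while GATA3 was at 10.4 to 28.8 and FOXA1 at 2.11 to 17.0 CPM. Of 6 fibroblast markers PDGFRA reached at most 0.256 CPM, while DCN was at 7.42 to 103 and COL1A1 at 3.82 to 118 CPM. The fibroblast sum was 129 to 133 CPM in PBS, 30.9 to 35.9 with EGF, 87.8 to 110.4 with OSM and 204 to 214 with TGFB. The immune sum was 54.4 to 61.2 CPM in PBS, 26.1 to 29.8 with EGF, 96.2 to 119 with OSM and 34.6 to 44.6 with TGFB, and the sum of 4 endothelial markers 31.3 to 35.3, 1.54 to 2.02, 2.94 to 3.66 and 16.7 to 19.7 CPM. Of the 4 endothelial markers KDR was at 0.308 to 31.3 CPM, while PECAM1, VWF and CDH5 reached at most 2.06, 3.52 and 0.144 CPM. The part of these markers of other cell types in the members' values was not tested.

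The 34 members together took 728 to 783 CPM in T0, 615 to 648 in PBS, 593 to 602 with TGFB, 944 to 1157 with OSM, 1415 to 1544 with EGF and 1582 to 1781 with EGF+OSM. The ranges of PBS and TGFB were the lowest among these 6 groups, and those of EGF and OSM overlapped neither each other nor PBS. With TGFB in the mixture the sums were 653 to 698 CPM for OSM+TGFB, 858 to 1049 for EGF+TGFB and 851 to 985 for all 3 ligands. Each of these 3 ranges lay below that of the same mixture without TGFB. In bulk RNA, fewer cells that express a gene and less RNA per cell cannot be told apart.

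**Figure D1:**
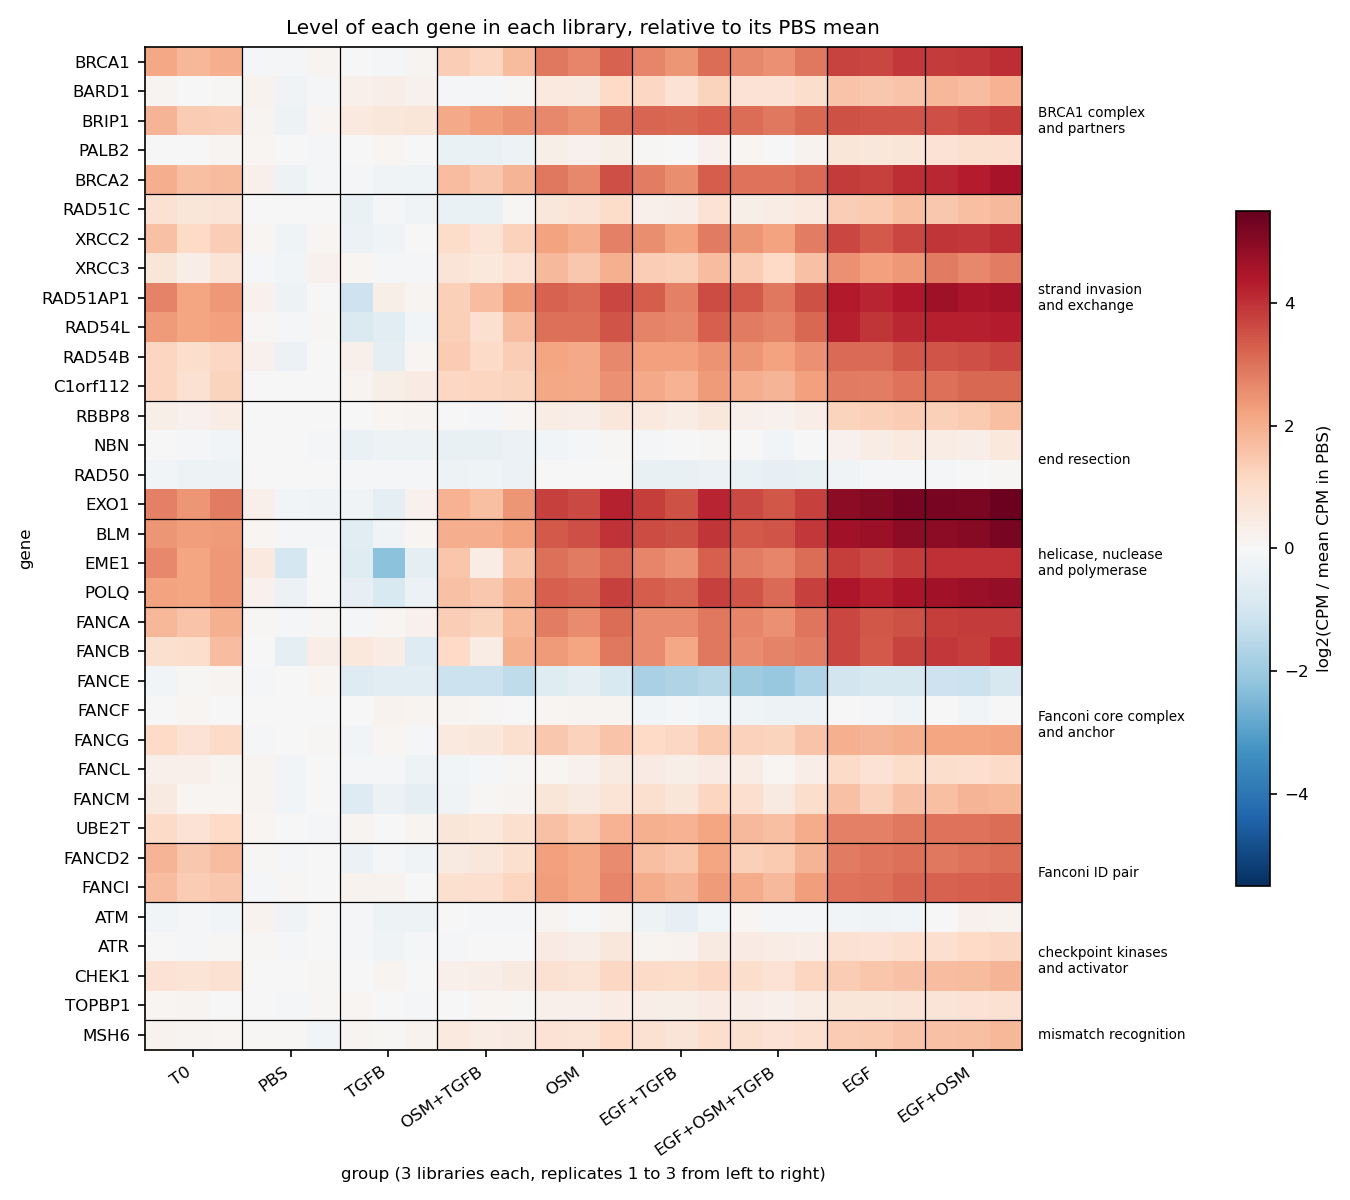
Heat map of the 34 members (rows, grouped by role) in the 27 libraries (columns, by group), coloured by log2 of CPM over the gene's mean CPM in PBS. Most rows are near 0 in PBS and TGFB and highest in EGF and EGF+OSM, whereas FANCE is below 0 in every group that received a ligand and the rows of ATM, RAD50 and FANCF are nearly flat.

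Between T0 and the PBS libraries, most members were lower in PBS. Of the 34, 22 fell and 1 rose, against 18.9% of all tested genes that were lower and 16.2% that were higher, and the members' median log2 change was -0.99. EXO1, an exonuclease that extends resection, stood at 12.6, 10.1 and 13.4 CPM in the T0 libraries and 2.28, 1.68 and 1.64 in PBS. Its PBS libraries were all below its T0 libraries, a log2 change of -2.69 ± 0.25 (SE, n = 3 per group, edgeR adjusted p 3.9e-08). RAD51AP1, which stimulates strand pairing, and EME1, the partner of the MUS81 nuclease, fell by 2.45 and 2.41 on the log2 scale. RAD50, the ATPase of the MRE11 complex, was the exception at 165, 149.8 and 149 CPM in T0 and 185, 183 and 178 in PBS (0.24 ± 0.05, edgeR adjusted p 3.5e-04). The S-phase markers were lower too: their sum ranged over 496 to 571 CPM in T0 and 251 to 256 in PBS, and 15 of 16 genes fell. The G2/M marker sum ranged over 749 to 978 CPM in T0 and 122 to 169 in PBS, and 14 of 14 genes fell. The part of cell-cycle composition in the members' values was not tested.

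EGF raised 30 of the 34 members over PBS and lowered 1, FANCE. Among all tested genes 34.9% were higher and 38.6% lower. The members' median log2 change was 2.60 beside -0.07 for all genes. OSM raised 29 and lowered the same gene, beside 33.5% and 29.8% of all genes, with a median of 1.72 beside 0.00 for all genes. EGF against T0 gave 31 higher and 1 lower, beside 32.8% and 36.6% of all genes. The comparisons with PBS share its 3 libraries, so their lists are not independent of each other.

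The BRCA1 complex rose as a whole: all 5 of its genes were higher with EGF (median log2 change 3.47) and all 5 with OSM (median 2.75). BRCA1 (ENSG00000012048, chr17:43044295-43170245, minus strand, hg38 gene span from GENCODE v44 as for the genes below), a ubiquitin ligase subunit that directs breaks to recombination, was at 4.002, 4.14 and 4.77 CPM in PBS, 57.2, 54.3 and 62.9 with EGF and 32.1, 27.9 and 40.4 with OSM. The 3 groups did not overlap, and BRCA1 was 13.5-fold higher with EGF (log2 3.76 ± 0.17, edgeR adjusted p 1.9e-14). BRCA2 (ENSG00000139618, chr13:32315086-32400268, plus strand), which acts at the resected single strands, went from 2.15, 1.47 and 1.71 CPM in PBS to 25.7, 23.7 and 29.5 with EGF and 13.3, 11.2 and 20.7 with OSM. These groups were also apart, at log2 3.89 ± 0.22 for EGF and 3.09 ± 0.23 for OSM. The helicase gene BRIP1 rose by log2 3.47 ± 0.15 with EGF. BARD1, the obligate partner of BRCA1, rose less, from 6.20 ± 0.822 to 18.0 ± 0.717 CPM with EGF (SD, n = 3). PALB2, which bridges BRCA1 and BRCA2, had the smallest change of the complex at log2 0.65 ± 0.07.

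All 7 genes of strand invasion and exchange rose with EGF (median 3.22) and all 7 with OSM (median 2.34). RAD51AP1 (ENSG00000111247, chr12:4538798-4560047, plus strand) was at 0.800, 0.561 and 0.684 CPM in PBS, 13.9, 12.6 and 14.5 with EGF and 6.43, 5.84 and 8.69 with OSM. It led this role, 20.0-fold higher with EGF and 10.2-fold with OSM, with no overlap of the groups. RAD54L, a translocase that drives strand exchange, stood at 1.00, 0.884 and 1.00 CPM in PBS and 18.5, 14.5 and 17.3 with EGF (log2 4.12 ± 0.20). RAD51C, XRCC2 and XRCC3, which form related complexes in strand exchange, differed in size of change, from log2 1.49 ± 0.13 for RAD51C to 2.39 ± 0.14 for XRCC3 (3.48, 3.43 and 4.47 CPM in PBS, 21.8, 18.2 and 19.7 with EGF) and 3.57 ± 0.21 for XRCC2. C1orf112, whose product is named FIRRM and acts late in recombination, was at 4.43, 4.27 and 4.20 CPM in PBS, 31.6, 30.6 and 33.6 with EGF and 19.02, 18.1 and 24.2 with OSM. Its 3 groups were apart (log2 2.89 ± 0.12 with EGF and 2.25 ± 0.12 with OSM), and it stood at 18.3, 16.3 and 21.5 CPM with EGF+TGFB, above PBS and below EGF. RAD54B, a relative of RAD54L, rose from 1.17 ± 0.214 to 10.9 ± 1.38 CPM.

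The resection genes were divided. EXO1 (ENSG00000174371, chr1:241847967-241895148, plus strand) had the largest change of any member, from 2.28, 1.68 and 1.64 CPM in PBS to 57.0, 61.7 and 69.8 with EGF and 25.1, 23.4 and 35.1 with OSM. Its groups were far apart, at 33.8-fold for EGF (log2 5.08 ± 0.24, edgeR adjusted p 4.6e-14) and 14.96-fold for OSM (log2 3.90 ± 0.24, edgeR adjusted p 5.9e-12). RBBP8, which encodes the resection activator CtIP, rose by log2 1.32 ± 0.08 with EGF and 0.46 ± 0.08 with OSM. NBN, a subunit of the MRE11 complex, rose with EGF (56.2, 57.0 and 53.5 CPM in PBS, 64.9, 73.3 and 80.1 with EGF, log2 0.39 ± 0.07) but was not called with OSM (50.5, 51.9 and 58.9 CPM, log2 -0.05 ± 0.07, edgeR adjusted p 0.56). RAD50, of the same complex, was at 185, 183 and 178 CPM in PBS, 158, 176 and 177 with EGF and 178, 177 and 187 with OSM. It was called with neither ligand (log2 -0.10 ± 0.05 for EGF, edgeR adjusted p 0.074), although its EGF libraries all lay below those of PBS, and its OSM value (-0.01) turned positive, up to 0.0034, without PBS replicate 1, OSM replicate 1 or OSM replicate 2. RAD50 was called lower with EGF without EGF replicate 3 or EGF+TGFB replicate 3 (-0.12 and -0.11) and under upper-quartile scaling (-0.16).

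BLM, the helicase that dissolves joined DNA molecules, EME1 and POLQ, the polymerase of microhomology-mediated joining, all rose with both ligands. BLM (ENSG00000197299, chr15:90717346-90816166, plus strand) was at 1.00, 0.884 and 0.880 CPM in PBS, 22.7, 23.8 and 28.0 with EGF and 9.62, 10.8 and 14.4 with OSM. POLQ (ENSG00000051341, chr3:121431431-121545988, minus strand) was at 1.58, 1.06 and 1.34 CPM in PBS, 29.1, 25.6 and 29.9 with EGF and 13.1, 12.4 and 18.2 with OSM. In both genes PBS was lowest and EGF highest with no overlap, and the log2 changes with EGF were 4.75 ± 0.18 and 4.42 ± 0.21. EXO1, BLM, POLQ and RAD51AP1 were the 4 members with the largest increase under each ligand. EME1 was at 0.675, 0.237 and 0.464 CPM in PBS and 6.32, 5.61 and 6.58 with EGF, groups that did not overlap, and rose by log2 3.76 ± 0.29 with EGF.

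**Figure D2:**
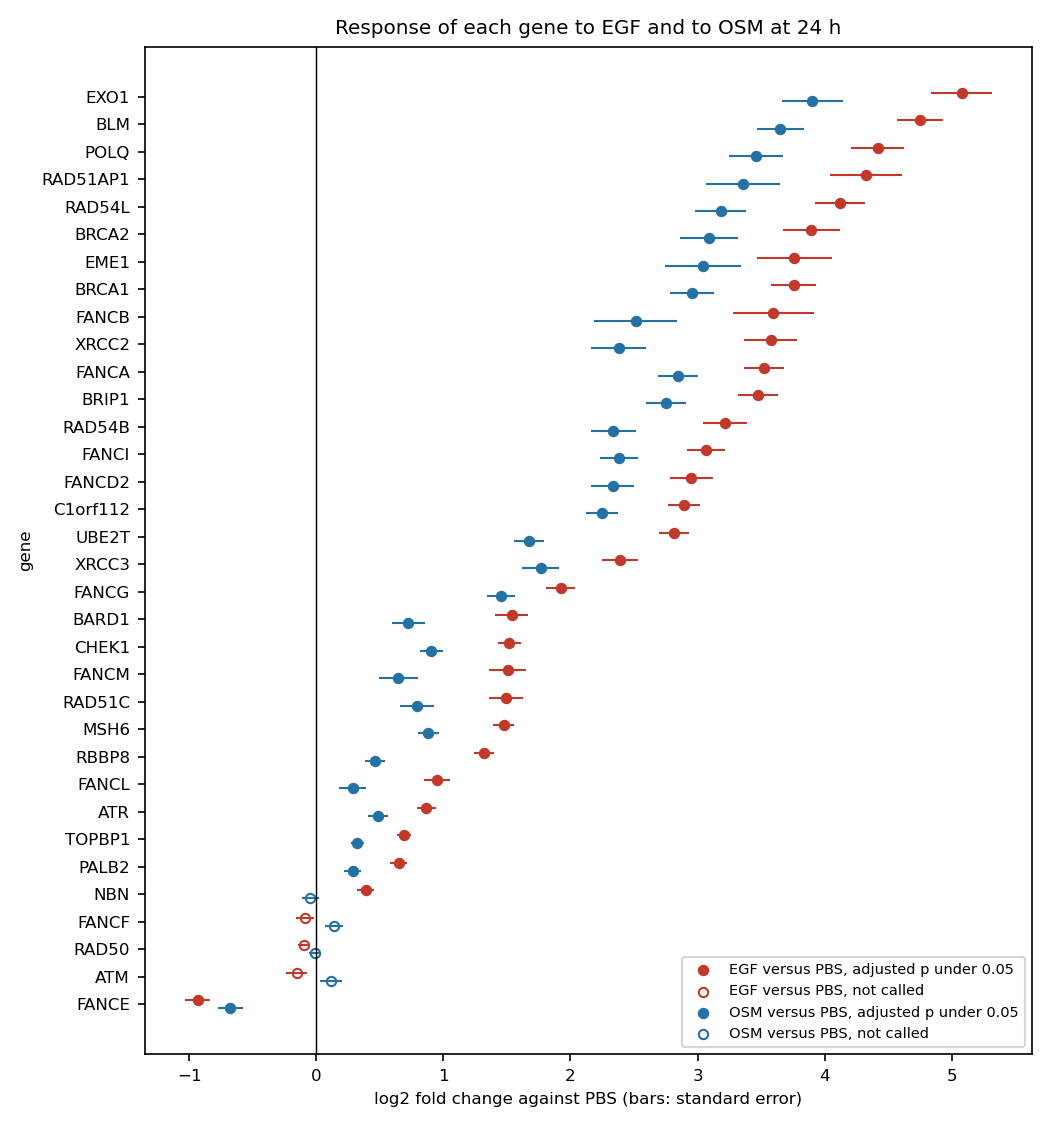
Log2 fold change against PBS (x axis) of each member (rows) with EGF (red) and with OSM (blue), with standard errors as bars, filled where the adjusted p was under 0.05 and open where it was not. Most points are filled and above 0 with EGF to the right of OSM, FANCE is below 0 with both ligands, and ATM, RAD50 and FANCF are open with both.

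Within the Fanconi core, 6 of 8 genes rose with EGF, 1 fell and 1 was not called. UBE2T, the ubiquitin-conjugating enzyme of the pathway, was at 8.10, 7.36 and 7.14 CPM in PBS, 51.0, 51.8 and 56.2 with EGF and 23.0, 20.7 and 28.7 with OSM. FANCA, a scaffold subunit, was at 3.502, 3.13 and 3.54 CPM in PBS, 43.0, 36.0 and 38.0 with EGF and 23.8, 20.4 and 28.9 with OSM. Both genes kept the order PBS, OSM, EGF with no overlap, and rose with EGF by log2 2.82 ± 0.12 and 3.53 ± 0.16. FANCB, the partner of the ligase subunit in the core, rose by 3.60 ± 0.32 from 0.500, 0.345 and 0.635 CPM in PBS to 6.21, 5.17 and 6.51 with EGF. FANCG, FANCM, the translocase that anchors the core to DNA, and FANCL, the ligase subunit, rose by 1.92, 1.51 and 0.95. The substrate pair rose together: FANCD2 (ENSG00000144554, chr3:10026370-10101932, plus strand) went from 6.68, 5.82 and 6.53 CPM in PBS to 46.5, 48.2 and 52.3 with EGF and 30.1, 27.5 and 38.2 with OSM. FANCI went from 11.9, 13.1 and 12.7 CPM in PBS to 99.3, 102 and 114 with EGF and 61.4, 55.2 and 80.6 with OSM, again in 3 separate ranges. The log2 changes with EGF of FANCD2 and FANCI were 2.95 ± 0.17 and 3.06 ± 0.15.

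FANCE, a core subunit that contacts FANCD2, moved the other way (ENSG00000112039, chr6:35452338-35467104, plus strand). It was at 25.4, 29.1 and 30.5 CPM in T0 and 25.6, 27.9 and 30.01 in PBS, against 13.8, 14.99 and 14.9 with EGF, 17.4, 19.04 and 15.7 with OSM and 16.8, 18.8 and 18.3 with TGFB. Every library of the 3 single ligands was below every PBS library. FANCE fell by 0.93 with EGF, by 0.68 with OSM and by 0.63 with TGFB on the log2 scale (SE 0.10 for EGF, edgeR adjusted p 4.6e-09, 1.4e-06 and 1.2e-05). With TGFB in a pair it was lower again, at 8.00, 8.91 and 9.63 CPM with EGF+TGFB and 12.2, 12.2 and 10.7 with OSM+TGFB, and its mean was lowest with all 3 ligands, at 7.12, 6.62 and 8.65 CPM, a range that overlapped EGF+TGFB. The change with all 3 ligands was log2 -1.90 ± 0.11 against PBS. FANCF, an adaptor subunit encoded by a single exon, differed little between groups, at 14.3, 13.8 and 13.6 CPM in PBS, 14.2, 12.9 and 12.1 with EGF and 15.1, 15.3 and 15.5 with OSM. The EGF and PBS libraries of FANCF overlapped (log2 -0.09 ± 0.07, edgeR adjusted p 0.26).

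Of the checkpoint genes, CHEK1, ATR and TOPBP1 rose with EGF and ATM was not called. CHEK1, the effector kinase of the replication checkpoint, rose from 17.3 ± 0.470 to 49.5 ± 3.32 CPM with EGF (log2 1.52 ± 0.09). ATR, the kinase activated at single-stranded DNA, and its activator TOPBP1 rose by 0.87 ± 0.08 and 0.69 ± 0.05. ATM, the kinase activated at double-strand breaks, was at 64.7, 48.9 and 55.6 CPM in PBS, 50.8, 49.9 and 51.3 with EGF and 63.1, 57.9 and 62.2 with OSM. Its groups overlapped with PBS under either ligand (EGF log2 -0.15 ± 0.08, edgeR adjusted p 0.10). ATM was called lower with EGF without PBS replicate 2 (-0.25) or under upper-quartile scaling (-0.22), and higher with OSM without PBS replicate 1 (0.22). MSH6, a subunit of the mismatch sensor, rose from 48.2 ± 3.64 to 134 ± 9.29 CPM with EGF.

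**Figure D3:**
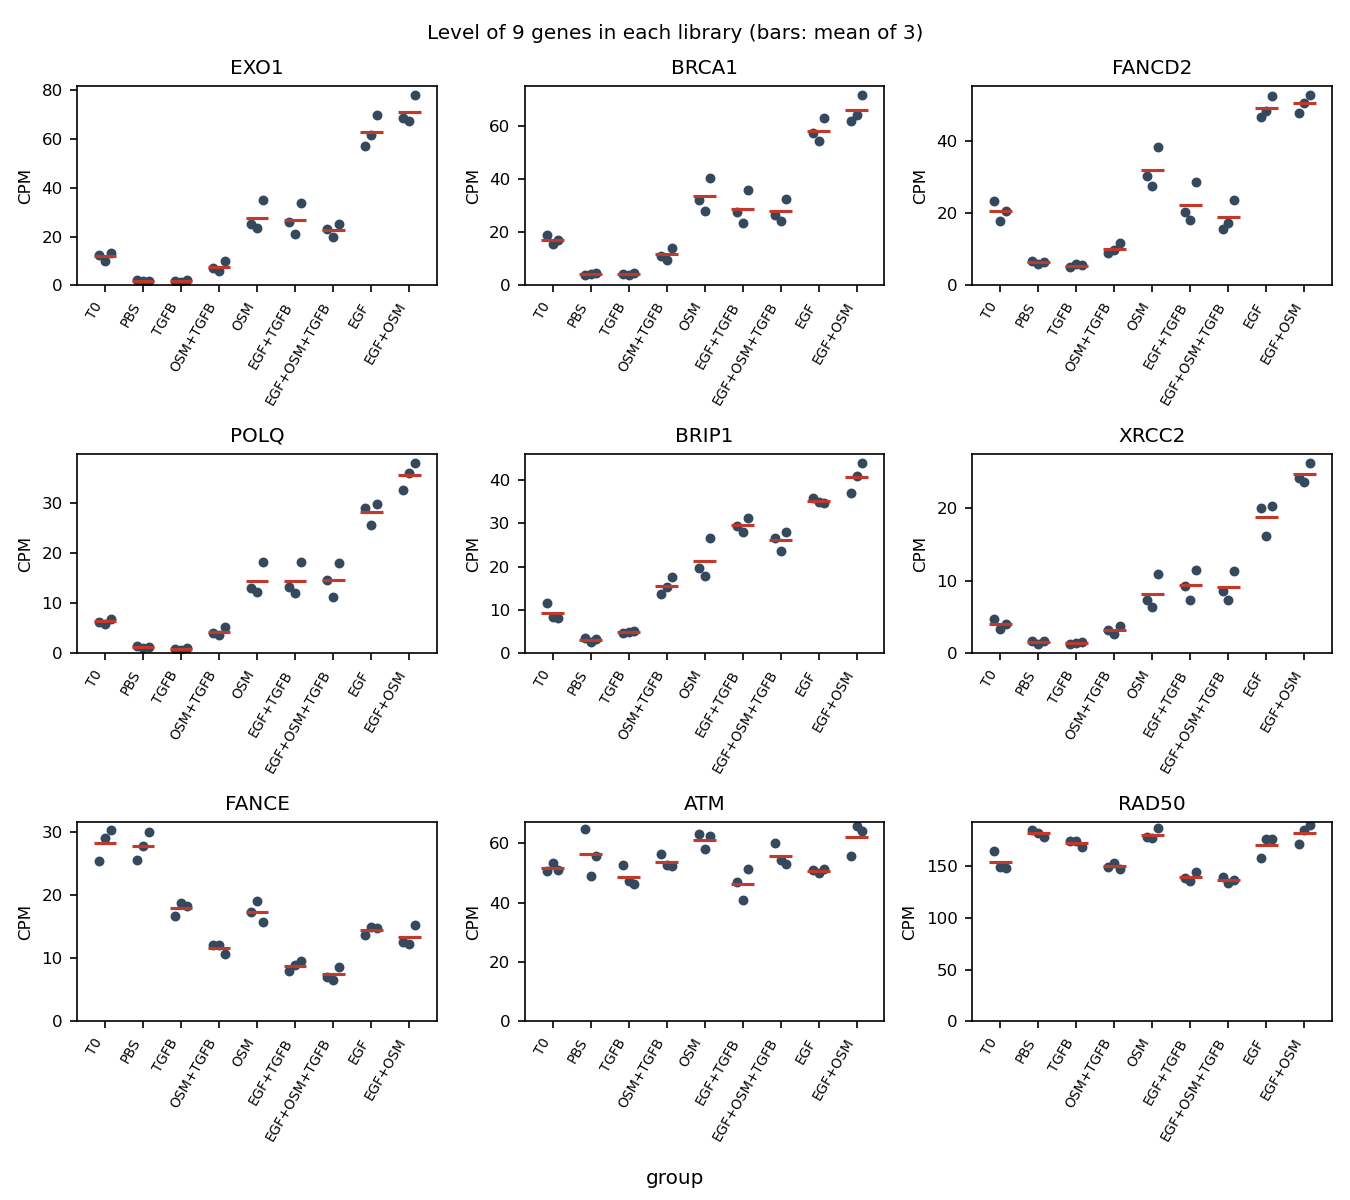
CPM (y axis, linear from 0) of 9 members in each library (points) with the mean of 3 libraries (bars), by group (x axis). EXO1, BRCA1, FANCD2, POLQ, BRIP1 and XRCC2 are lowest in PBS or TGFB and highest in EGF+OSM, FANCE is highest in T0 and PBS and lowest with all 3 ligands, and the ATM and RAD50 panels vary little.

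Promoter sequence was set beside these changes because FANCE, FANCF and ATM did not follow the other members. RefSeq windows on GRCh38.p14 (250 bases before the start to 50 after it) matched 30 of the 34 members. Words of the E2F class (TTTCCCGC, TTTCGCGC, TTTGGCGC or TTTGCCGC, either strand) occurred in 6 of the 30 (20.0%) and in 4.61% of 14850 promoters of that length. The 6 were XRCC2, EXO1, FANCA, FANCD2, TOPBP1 and MSH6, and their log2 change with EGF ranged from 0.69 to 5.08. The CHR words (TTTGAA or TTCGAA) occurred in 5 of 30 (16.7%) beside 12.8% of all promoters, and CCAAT in 13 of 30 (43.3%) beside 36.8%, each searched on both strands and on its own, so that matches may overlap. A CHR word was also present in the window of ATM, which was not called with EGF, and CCAAT in that of FANCF. The 30 bases around each E2F word are shown 5′ to 3′ on the gene's strand, with the word in capitals.
XRCC2 chr7:152676102-152676131, minus strand: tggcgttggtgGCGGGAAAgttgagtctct
EXO1 chr1:241848197-241848226, plus strand: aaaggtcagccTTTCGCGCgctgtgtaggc
FANCA chr16:89816801-89816830, minus strand: actacaccgcgGCGGCAAAgccaaacgcaa
FANCD2 chr3:10026424-10026453, plus strand: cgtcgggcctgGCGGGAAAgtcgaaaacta
TOPBP1 chr3:133661930-133661959, minus strand: ccgcgcggttgGCGCGAAAgtcggttcccg
MSH6 chr2:47783137-47783166, plus strand: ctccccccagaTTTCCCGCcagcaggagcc
These words lie between position -183 (first base shown for FANCA) and position 39 (last base shown for XRCC2), with the start base counted as 0. A match describes letters and was not tested as a binding site.

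The 150 bases before the start are shown for 3 members that responded differently to EGF: BLM, which rose, FANCF, which was not called, and FANCE, which fell. Capitals mark CCAAT or its reverse complement.
BLM chr15:90717196-90717345, plus strand: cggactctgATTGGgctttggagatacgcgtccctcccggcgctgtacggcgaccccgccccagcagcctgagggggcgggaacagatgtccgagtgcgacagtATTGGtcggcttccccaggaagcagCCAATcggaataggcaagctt
FANCF chr11:22625824-22625973, minus strand: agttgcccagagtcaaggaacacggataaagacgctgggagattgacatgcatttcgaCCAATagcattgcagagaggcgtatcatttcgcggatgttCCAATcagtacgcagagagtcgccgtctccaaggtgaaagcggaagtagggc
FANCE chr6:35452188-35452337, plus strand: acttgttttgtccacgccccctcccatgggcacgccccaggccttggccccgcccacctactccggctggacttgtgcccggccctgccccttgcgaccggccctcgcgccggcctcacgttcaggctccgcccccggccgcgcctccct
The word occurred 3 times in the stretch of BLM, 2 times in that of FANCF and 0 times in that of FANCE, and none of these 3 stretches held an E2F or CHR word. These 3 members were picked as examples. Over the 30 windows, the 13 with CCAAT had log2 changes with EGF from -0.15 to 4.75. The 17 without it had changes from -0.93 to 5.08, the highest being EXO1. A link between the word and the response was not tested.

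TGFB alone changed 4 members: 1 rose and 3 fell, beside 19.9% of all tested genes higher and 15.8% lower, and the members' median log2 change was -0.05. None of the 4 was called under a 2-fold limit, and 9 members were called with the replicate number added to the fit. The shares of all genes above are for neither alternative. BRIP1 was at 3.502, 2.59 and 3.45 CPM in PBS and 4.67, 4.90 and 5.10 with TGFB. It rose by log2 0.63 ± 0.17 (edgeR adjusted p 0.0062), a call that was lost without PBS replicate 2 (0.49). NBN, at 43.2, 45.4 and 45.3 CPM with TGFB, fell by 0.32 (edgeR adjusted p 6.4e-04). FANCM, at 5.83, 4.70 and 5.08 CPM in PBS and 3.16, 4.18 and 3.69 with TGFB, fell by 0.50 (edgeR adjusted p 0.017), a call lost without PBS replicate 1 (-0.41) or TGFB replicate 1 (-0.40). BRCA1 stood at 4.38, 4.01 and 4.75 CPM with TGFB and was not called (log2 0.02 ± 0.20, edgeR adjusted p 0.95). The S-phase markers summed to 250.3 to 257 CPM with TGFB and 251 to 256 in PBS, ranges that overlapped, with 1 of 16 higher and 1 lower. These 2 calls became 1 without PBS replicate 1 or 2 or TGFB replicate 2 or 3 or with no filter on low counts. They became 4 with DESeq2, and 5 with only the groups compared or with the replicate number added to the fit. The G2/M markers summed to 90.9 to 111 CPM with TGFB and 122 to 169 in PBS, with 5 of 14 lower. This number was 1 to 3 without PBS replicate 1 or 3 or any TGFB library and 3 with no filter. It was 9 with DESeq2, and 8 with only the groups compared or with the replicate number added to the fit. The part of the S-phase and G2/M markers in the members' values was not tested.

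Added to EGF or OSM, TGFB lowered most members. With EGF present 31 fell and 0 rose, beside 27.7% of all genes lower and 27% higher. With OSM present 32 fell and 0 rose, beside 25.6% and 26.1%, and with both present 33 fell and 0 rose, beside 29.5% and 31.6%. The median log2 changes were -0.79, -0.99 and -1.13. When an estimated change of more than 2-fold was also required, the numbers were 9, 17 and 19. The shares of all genes above are without this limit.

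EXO1 had the largest decrease in each of these 3 settings. It was at 26.0, 21.2 and 33.7 CPM with EGF+TGFB, 6.99, 5.83 and 9.96 with OSM+TGFB and 23.2, 19.7 and 25.4 with all 3 ligands. Each of these groups lay below the same mixture without TGFB and above PBS, and EXO1 fell by 1.23 when TGFB joined EGF and by 1.87 when it joined OSM (edgeR adjusted p 5.7e-06 and 1.1e-07). BRCA1 was at 27.4, 23.4 and 35.7 CPM with EGF+TGFB and 11.1, 9.74 and 14.2 with OSM+TGFB. FANCD2 was at 20.2, 18.1 and 28.6 CPM with EGF+TGFB and 9.01, 9.80 and 11.7 with OSM+TGFB. Both genes kept the pattern of EXO1, below the ligand alone and above PBS, with decreases of 1.02 for BRCA1 and 1.15 for FANCD2 when TGFB joined EGF. RAD54L fell by 1.22 with EGF present and by 1.86 with OSM present.

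BRIP1 was least affected among the members with large increases. It was at 35.9, 34.9 and 34.7 CPM with EGF and 29.5, 28.1 and 31.4 with EGF+TGFB, and the change was not called (log2 -0.25 ± 0.13, edgeR adjusted p 0.10). With OSM present BRIP1 did fall, by 0.46 (edgeR adjusted p 0.0065). ATM was not called in any of the 3 settings and FANCF in the 2 with a single other ligand. RAD50, called with neither EGF nor OSM alone, fell by 0.29 when TGFB joined EGF (139, 136 and 145 CPM) and by 0.27 when it joined OSM (149.6, 153 and 147 CPM).

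**Figure D4:**
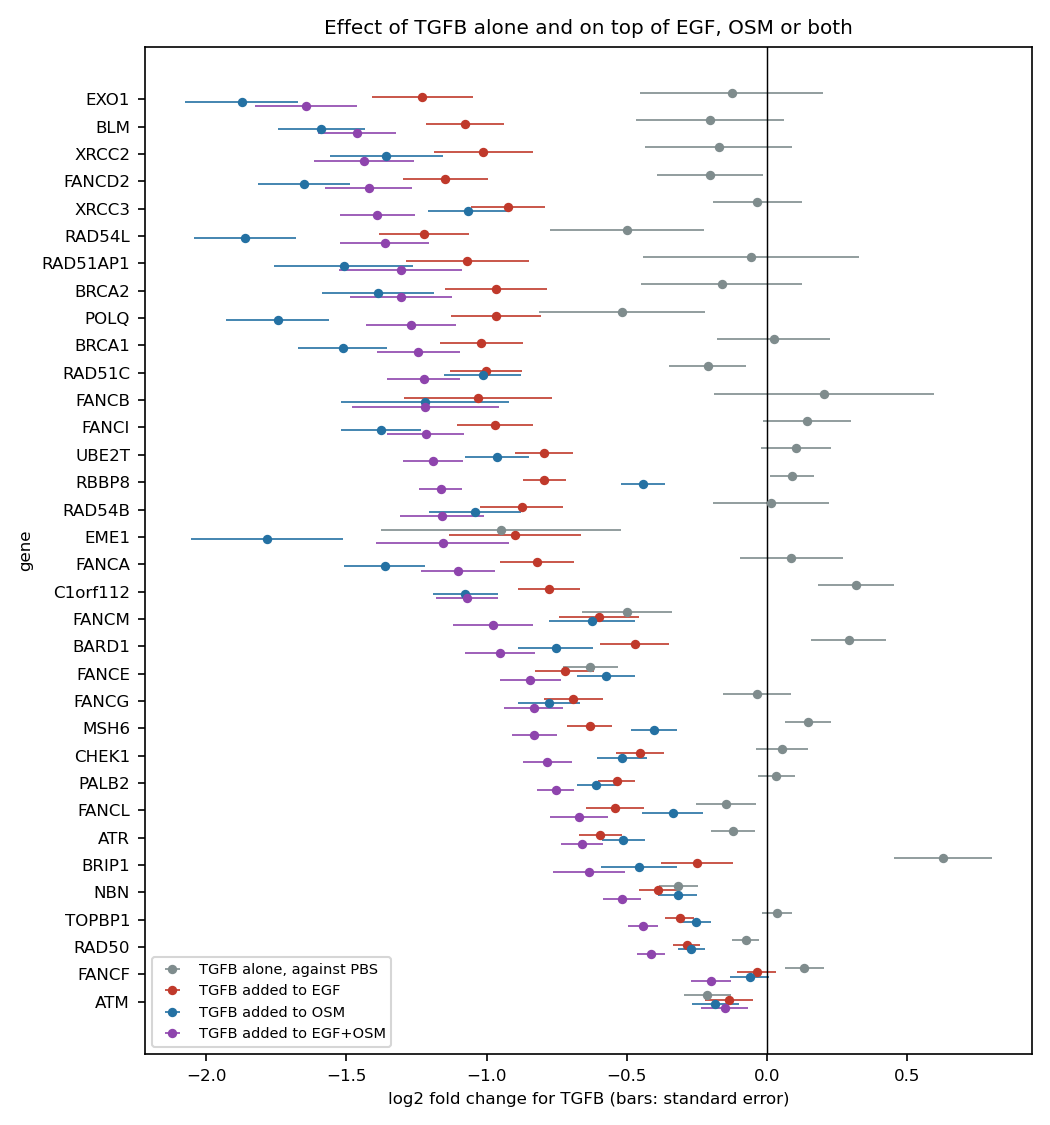
Log2 fold change for TGFB (x axis) of each member (rows) alone against PBS (grey) and added to EGF (red), OSM (blue) or EGF+OSM (purple), with standard errors as bars. The grey points lie on both sides of 0, and all points of the other 3 colours lie below 0, those of ATM and FANCF closest to it.

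Against PBS, many members were still higher with TGFB in the mixture. With EGF+TGFB 28 rose and 3 fell (FANCE, RAD50, ATM), beside 36.2% and 37.5% of all genes. With OSM+TGFB 21 rose and 4 fell (FANCE, NBN, PALB2, RAD50), beside 34.2% and 31.8%. With all 3 ligands 28 rose and 3 fell (FANCE, RAD50, FANCF), beside 37.7% and 36.7%. With OSM+TGFB the members not called included ATR, RBBP8, BARD1 and RAD51C, which OSM alone had raised. PALB2 was at 21.6, 20.5 and 21.6 CPM with OSM and 13.7, 13.7 and 14.4 with OSM+TGFB, against 18.7, 17.1 and 16.4 in PBS. All 3 PALB2 values with OSM+TGFB lay below PBS (log2 -0.32 ± 0.07, edgeR adjusted p 2.2e-04).

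The size of the TGFB decrease was compared directly between cells given OSM and cells given EGF. None of the 34 members was called for the difference in edgeR's quasi-likelihood test, beside 7.23% of all genes. At an unadjusted p under 0.05 there were 10 members, beside 20.1% of all genes. DESeq2 called 2, and adding the replicate number to the edgeR fit gave 8 calls. The estimated decrease was larger with OSM in 26 of 34 members, none of them called. Over all genes the median difference was -0.003 on the log2 scale, and the share with the same sign is not given here. RBBP8, 1 of the other 8 members, had the smallest p (edgeR adjusted p 0.050). RBBP8 fell by 0.79 when TGFB joined EGF and by 0.44 when it joined OSM. The count was 3 without OSM+TGFB replicate 3, 2 without OSM replicate 2 or 3, and 1 without T0 replicate 3, EGF replicate 1, EGF+OSM replicate 1 or 3, EGF+TGFB replicate 2, OSM+TGFB replicate 2, or replicate 2 or 3 of all 3 ligands.

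EGF and OSM differed in strength. Against EGF, 30 members were lower with OSM and 3 higher, beside 28.8% and 28.0% of all genes, with a median of -0.69. XRCC2, of the strand exchange genes, was at 20.0, 16.2 and 20.3 CPM with EGF and 7.40, 6.39 and 10.9 with OSM. Its groups did not overlap (log2 -1.19 ± 0.18, edgeR adjusted p 4.1e-06), and EXO1 was lower by a similar log2 of -1.17 ± 0.18. The 3 genes higher with OSM were ATM, FANCE and FANCF, at 0.27, 0.26 and 0.22. With a 2-fold limit, 5 of the 33 calls were made, and the shares of all genes above are without that limit.

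The pair EGF+OSM gave the highest mean level in most members. Against OSM alone 30 rose and 2 fell, beside 29.9% and 31.8% of all genes, led by XRCC2 (1.58) and FANCB (1.43). Against EGF alone 8 rose and 0 fell, beside 17.8% and 17.1%. These were BRCA2, XRCC3, ATM, FANCG, CHEK1, MSH6, PALB2 and ATR, with log2 changes from 0.20 to 0.45. BRCA2 was at 25.7, 23.7 and 29.5 CPM with EGF and 31.6, 35.1 and 41.4 with EGF+OSM. Its libraries did not overlap, but the call stood at an edgeR adjusted p of 0.048 and was lost in 19 of 27 fits that left out a library, with log2 changes of 0.34 (without EGF+OSM replicate 3) to 0.47 (without EGF+OSM replicate 2), most of them near 0.45. It was also lost with upper-quartile scaling (0.43), DESeq2-type size factors (0.45), no filter on low counts (0.46) and rows as deposited (0.45). It was kept without T0 replicate 1, PBS replicate 1, EGF replicate 3, OSM replicate 2 or 3, EGF+OSM replicate 1, or EGF+TGFB replicate 2 or 3. XRCC3 (edgeR adjusted p 0.017) lost its call without EGF replicate 2, EGF+OSM replicate 1 or EGF+OSM replicate 3 (0.33, 0.34 and 0.38). The count of 8 was 3 without EGF replicate 1, 2 without EGF replicate 2 and 4 without EGF+OSM replicate 2. It was 1 without EGF+OSM replicate 3 and 13 without OSM replicate 3. Adding the replicate number to the fit, or fitting only the groups compared, gave 17, and either other scaling or rows as deposited gave 5. Against PBS, EGF+OSM raised 30 members and lowered FANCE, beside 37.6% and 39.6% of all genes.

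The combinations were compared with the sum of the 2 single log2 changes. For EGF and OSM, 26 members were lower and 1 higher than that sum, beside 23.0% and 15.7% of all genes, with a median departure of -1.42. EXO1 departed by -3.72 ± 0.30 and BLM by -3.35 ± 0.23, and FANCE, which fell with each ligand, was the member above the sum, at 0.56 ± 0.14. For EGF and TGFB 23 were lower and 0 higher, beside 16.5% and 13.3%. FANCI was lowest at -1.11 ± 0.21, and EXO1, at -1.10 ± 0.37, lost its call without PBS replicate 2 or 3, EGF replicate 3, TGFB replicate 1 or 3, or EGF+TGFB replicate 2 (-1.13 to -0.90). For OSM and TGFB 27 were lower and 0 higher, beside 13.7% and 9.61%, led by EXO1 (-1.75 ± 0.39) and BRCA1 (-1.54 ± 0.26). FANCE was not called for either pair with TGFB (-0.09 with EGF and 0.06 with OSM).

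Other genes of the same pathways were followed from lists that hold no member. Among all tested genes 34.9% rose and 38.6% fell with EGF, which the counts below stand beside. Of 25 further homologous recombination genes tested, 17 rose and 3 fell with EGF (median 0.95). The meiotic cofactor gene MND1 rose by 4.59 ± 0.35, whereas SWI5 and RAD52, a strand-annealing factor, fell by 0.59 and 0.35. Of 14 further Fanconi genes 11 rose and 3 fell (median 0.99), led by FANCC at 1.71 ± 0.08, while the nuclease gene ERCC4 fell by 0.41. Of 11 genes that resolve or dissolve joined molecules 8 rose and 1 fell, with the helicase gene RECQL4 at 2.77 ± 0.18 and RECQL5 at -0.49 ± 0.07. Of 15 checkpoint genes 12 rose and 2 fell, led by CLSPN, the mediator of CHEK1 activation (4.98 ± 0.25), and the phosphatase gene CDC25A (3.47 ± 0.20).

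Genes of competing or separate repair routes had smaller medians than the members with EGF. So did the further recombination and Fanconi genes above, whose medians lay below that of alternative end joining. Of 11 genes of the BRCA1-A and 53BP1 complexes, which restrain resection, 5 rose and 4 fell, shares near those of all tested genes (34.9% and 38.6%; median 0.21), with RIF1 at 0.79 ± 0.07 and ABRAXAS1 at -0.92 ± 0.11. Of 10 non-homologous end joining genes 8 rose and 2 fell (median 0.63), the polymerase gene POLL falling by 0.85. Of 6 alternative end joining genes 5 rose and 1 fell (median 1.19), with the flap nuclease gene FEN1 at 3.32 ± 0.15. Of 6 mismatch repair genes 3 rose and 1 fell (median 0.47). Of 17 excision repair genes 9 rose and 5 fell (median 0.28), from -1.22 ± 0.10 for the damage sensor gene XPC to 1.12 ± 0.07 for the uracil glycosylase gene UNG. The difference between these lists and the members was not tested.

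Markers of cycling cells moved with the members. All 16 S-phase markers and all 14 G2/M markers rose with EGF (medians 3.39 and 4.11) and with OSM (medians 2.49 and 3.44), and all fell when TGFB joined EGF (medians -0.95 and -0.97) or OSM (medians -1.22 and -1.82). The S-phase sum was 1906 to 2133 CPM with EGF, 887 to 1273 with OSM, 889.8 to 1234 with EGF+TGFB and 390.5 to 531 with OSM+TGFB. The G2/M sum was 2235 to 2618 CPM with EGF, 1439 to 1945 with OSM, 1005 to 1538 with EGF+TGFB and 398 to 586 with OSM+TGFB. By mean, both sums and EXO1 placed these 4 groups in the same order, with EGF highest and OSM+TGFB lowest. The libraries of OSM and EGF+TGFB overlapped in both sums and in EXO1, with S-phase means of 1038 and 1029.5 CPM. EXO1 is 1 member, and the others were not ordered here. The part of these markers in the members' changes was not tested.

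**Figure D5:**
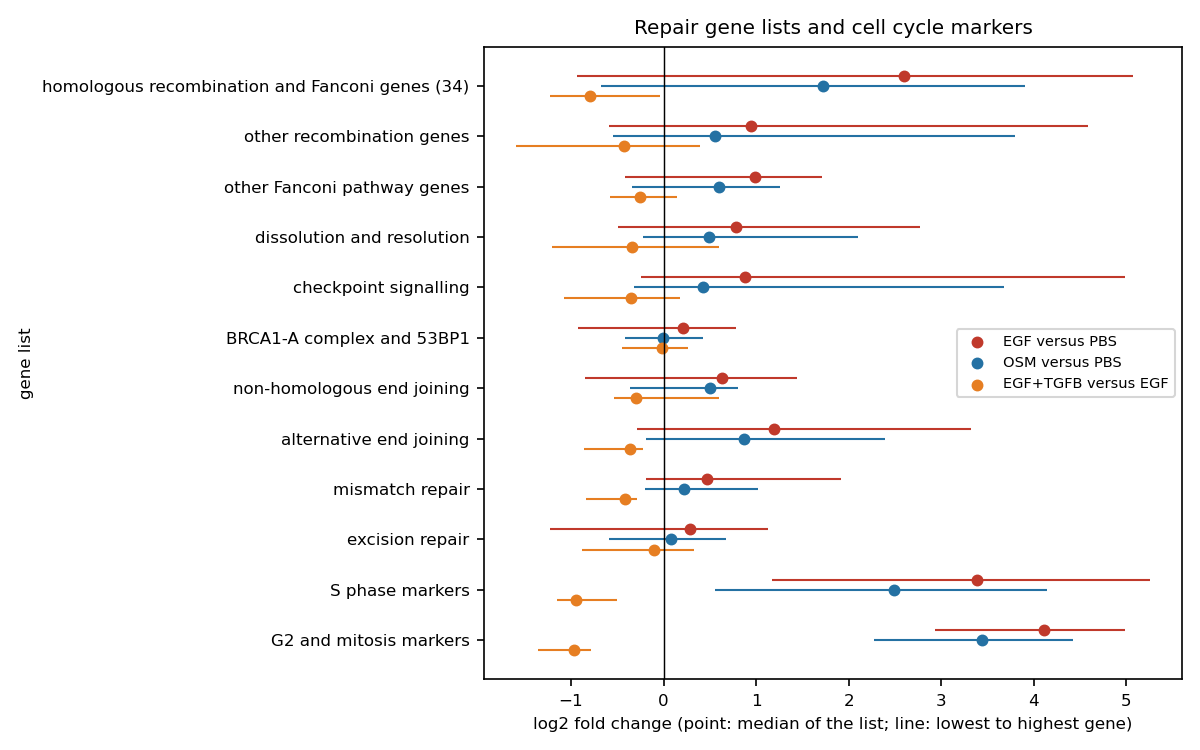
Log2 fold change (x axis) of the members, of the other repair gene lists and of the cell-cycle markers (rows) for EGF against PBS, OSM against PBS and EGF+TGFB against EGF, with the median of each list as a point and the lowest to highest gene as a line. The members and both marker lists have the largest positive medians with EGF and OSM, and every list has a negative median when TGFB joined EGF.

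The members also varied with the replicate number. Replicate 3 was above its group's mean over the members in 9 of 9 groups (0.026 to 0.226 on the log2 scale), and replicate 2 was below it in 9 of 9. In OSM replicate 3, 33 of 34 members were above the group mean. Without that library the EXO1 change with OSM was 3.70 in place of 3.90. Exons of 17 of the 34 members overlap another protein-coding gene in GENCODE v44, 13 of them on the opposite strand. ATM, FANCA, FANCF, FANCI and RAD50 are among the 17. The strand setting of the counting is not given in the sources used here, so reads from the shared stretches could not be assigned with certainty.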

How the data were processed

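Polyadenylated RNA was sequenced from 27 MCF10A libraries prepared with a stranded kit, per the labels' protocols. The submitters' processing notes name Trim Galore 0.4.3, cutadapt 1.10, kallisto 0.46.2, R 3.5.0 and the builds GRCh38.p5 and hg38. The values are the authors' deposited estimated counts per gene, stored as whole numbers; the strand setting and the summing to genes are not given in the sources used here. Rows without a symbol (7165 of 40487, 0.324% of counts) were kept under their Ensembl identifiers, and rows sharing a symbol were summed.

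Genes passing edgeR's filter by group were scaled by trimmed mean of M-values and fitted over all 27 libraries with group means in edgeR 4.0.16 (R 4.3.3), with robust quasi-likelihood tests and Benjamini-Hochberg adjustment in each of 19 comparisons. The coefficient of variation between replicates was 7.83%. In simulated data for EGF against PBS with 15216 genes, 68% of 100 genes changed 1.5-fold and 77% of 100 changed 2-fold were recovered, with 10 false calls. Alternatives were DESeq2 1.42.0, other scalings, filters and limits, single groups, a replicate term and the omission of each library. The members and lists were chosen with earlier results of these data known. Named members were BRCA1, BRCA2, FANCD2, C1orf112 and the largest, uncalled or opposite ones in each comparison; other members are described by role, with PALB2, FANCA, UBE2T and RBBP8 chosen after their values were seen. Named other genes were the 2 largest changes per list and up to 2 against its majority. A few of these are not reported here. Promoter windows came from RefSeq (GRCh38.p14), which does not cover FANCI, RAD54B, NBN and CHEK1 here, and gene spans from GENCODE v44.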

Additional observations from a re-analysis of the deposited data

Results flagged for a closer look

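The response to a pair of ligands differed from the sum of the single responses in many members, by an interaction test in edgeR's quasi-likelihood fit. For EGF with OSM 27 of 34 were called, 26 lower and 1 higher, beside 23.0% and 15.7% of all tested genes. For EGF with TGFB 23 were called, all lower, beside 16.5% of all tested genes lower and 13.3% higher. For OSM with TGFB 27 were called, all lower, beside 13.7% lower and 9.61% higher. Each of these is a test of whether the effect of one ligand differed with and without the other.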

How the results depend on the processing

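The counts of members called kept within 1.5 times in most alternatives. The shares of all tested genes given above belong to the main calls and not to these alternatives. Under a 2-fold limit the counts fell to 19 for OSM against PBS, 0 for TGFB, 16 for OSM+TGFB, 20 for all 3 ligands, 21 for EGF against T0, 5 for OSM against EGF, 0 for EGF+OSM against EGF, 14 for EGF+OSM against OSM, 9, 17 and 19 for TGFB added to EGF, OSM and EGF+OSM, and 4 for the departure of EGF with TGFB. For EGF+OSM against EGF the count was 5 with DESeq2-type size factors, with upper-quartile scaling and with rows as deposited, 17 with only the groups compared, and 1 to 13 when single libraries were left out. For the difference in the TGFB effect it was 2 with DESeq2, 1 with either other scaling, and 0 to 3 when single libraries were left out. The cause was not tested. RAD50 with OSM ranged from -0.035 to 0.0034 when single libraries were left out, positive in 3 of these fits.

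With the replicate number as a block, TGFB against PBS gave 9 calls, EGF+OSM against EGF 17 and the difference in the TGFB effect 8; the other 16 counts stayed within 1.5 times. Deviations of same-numbered libraries correlated at -0.027 to 0.178 over 108 pairs, 23 of them over 0.1, so the numbers were not taken to pair the samples, although 26 of 27 libraries correlated best with their own number.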

Other observations

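Regulators of cell-cycle transcription were tested as a further list, and the genes named here were chosen after their values were seen. Among all tested genes 34.9% rose and 38.6% fell with EGF, which the EGF counts in this paragraph stand beside. Of 19 E2F and DREAM complex genes, 16 rose and 2 fell with EGF against PBS, led by MYBL2, a transcription factor of late cell-cycle genes (log2 5.34 ± 0.24), FOXM1 (4.26 ± 0.21) and E2F7 (4.23 ± 0.20). The pocket protein gene RBL2 fell by 0.73. With TGFB alone E2F1, E2F2 and E2F8 fell by 0.95, 1.14 and 1.21, and E2F7 rose by 0.86 ± 0.24. The count for the whole list with TGFB is not given here, and 19.9% of all tested genes were higher and 15.8% lower. Of 19 p53 target genes 13 fell and 5 rose with EGF, from -2.36 ± 0.26 for GDF15 to 1.27 ± 0.10 for PLK3. The cyclin-dependent kinase inhibitor gene CDKN1A fell by 1.05 with EGF and was higher by 1.00 ± 0.12 when TGFB joined EGF.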
